A study of Homo sapiens with 6 samples.

Results

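The genes described here are 6 transcription factors that drive epithelial-mesenchymal transition, SNAI1, SNAI2, TWIST1, TWIST2, ZEB1 and ZEB2, and 3 genes that mark its course, the cadherins CDH1 and CDH2 and the intermediate filament gene VIM. They were taken by symbol from a table of raw counts for 58243 genes, in which all 9 were found once each. The RNA came from cultures labelled as Hep3B, an established line from a liver carcinoma. Cells of 3 libraries had received si-SNHG17-1, an siRNA that targets the long noncoding RNA SNHG17, and cells of the other 3 had received the control siRNA si-NC. A single siRNA against SNHG17 was used, and nothing states that the 3 libraries of a group came from separate cultures. The p-values therefore cover the spread of these libraries alone, and that spread may be technical. The 9 genes were chosen by name, with the levels per library and the change between si-SNHG17-1 and si-NC already known, that of SNAI2 among them. Their changes between the groups are therefore given as a description and are not independent evidence.

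In epithelial-mesenchymal transition, cells that adhere through E-cadherin, the product of CDH1, take on a migratory state with N-cadherin, the product of CDH2, and with filaments of vimentin. The SNAI and ZEB proteins are zinc finger repressors that bind CACCTG-type E-boxes, including those of the CDH1 promoter, and the TWIST proteins are basic helix-loop-helix factors. ZEB1 and ZEB2 and the microRNAs of the miR-200 family are known to repress each other. In liver cancer the transition is studied for its links to invasion and spread.

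The microRNAs of that family are shown first because their seeds, bases 2 to 8 and here in capitals, are complementary to sites in the ZEB1 and ZEB2 transcripts. The mature sequences are from RefSeq (GRCh38.p14), and they fall into 2 seed groups, the second differing from the first in a single base.
hsa-miR-141-3p: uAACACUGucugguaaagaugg
hsa-miR-200a-3p: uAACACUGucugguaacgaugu
hsa-miR-200b-3p: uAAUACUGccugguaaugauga
hsa-miR-200c-3p: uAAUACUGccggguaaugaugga
hsa-miR-429: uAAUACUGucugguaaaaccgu
The miR-141 and miR-200c genes lie on chromosome 12 and the other 3 on chromosome 1. Matches to either seed, CAGTATT or CAGTGTT on the transcript strand, were counted in the longest annotated 3′ UTR of each protein-coding gene of GENCODE release 29. The UTRs of ZEB1 and of ZEB2 each held 9 matches, and 0.0314% of 19141 genes held at least as many. Matches were not scaled by UTR length, which was 2549 bases for ZEB1 and 5370 for ZEB2. For the other members it ran from 322 (VIM) to 2049 (CDH1). SNAI2 held 1 match, and 28.2% of genes held at least 1, and the other 6 members held none. A site from each ZEB gene is given with its match in capitals, ZEB1 from chr10:31527623-31527649 on the plus strand and ZEB2 from chr2:144389043-144389069 on the minus strand (GRCh38).
ZEB1: tttatcttatCAGTATTatcactctta
ZEB2: taccatacatCAGTATTtttattatta
The host gene MIR200CHG and the genes MIR200A, MIR200B, MIR200C, MIR141, MIR429, MIR205HG and MIR205 were listed at 0 counts in all 6 libraries. These libraries do not measure mature microRNAs, so their levels are not known from this table.

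The libraries held 30207055 to 42271168 counts, and 3 counts, taken as the floor of detection, corresponded to 0.0712 to 0.0977 CPM (counts divided by library size on the usual per-megaread scale, with TMM scaling between libraries). SNHG17 averaged 8.11 ± 0.14 CPM in si-SNHG17-1 libraries and 23.0 ± 0.79 CPM in si-NC libraries (SD, n = 3 each). Of 12 hepatocyte markers, 11 averaged under 1 CPM. AFP, which encodes alpha-fetoprotein, reached at most 0.214 CPM in any library, and TTR and GPC3 were at 0 counts in all 6. The name Hep3B is thus used only as the label gives it.

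In both groups VIM and CDH2 were abundant and CDH1 was close to the floor. The RNA is that of whole cultures, so fewer cells of a kind and less RNA per cell cannot be told apart. To compare genes, CPM was divided by the length of the transcript with the longest coding sequence. VIM stood highest, at 388 ± 24.9 CPM per kb in si-SNHG17-1 libraries and 388 ± 89.5 in si-NC libraries (SD, n = 3 each). CDH2 came next, at 39.8 ± 1.92 and 34.2 ± 0.60 CPM per kb in the same order of groups. CDH1 was lowest, at 0.0443 ± 0.018 CPM per kb in si-SNHG17-1 libraries and 0.148 ± 0.0052 in si-NC libraries, and no library of either group brought it near another member. Among the factors, SNAI2 was the most abundant per kb in both groups, at 17.9 ± 1.17 and 8.35 ± 0.62.

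**Figure D1:**
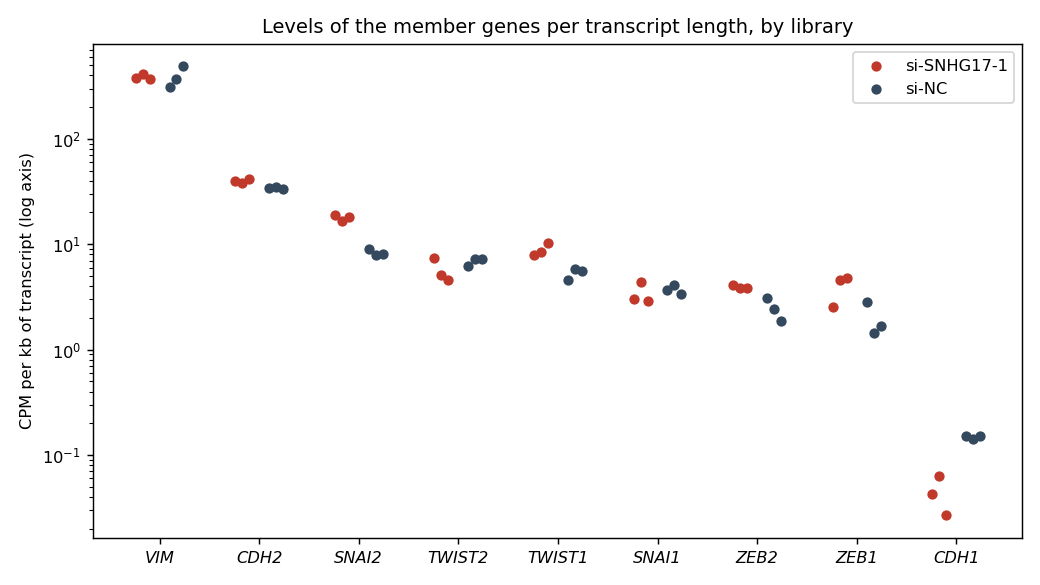
Levels of the 9 genes in each library as CPM per kb of transcript on a log axis, with si-SNHG17-1 points left of si-NC points and genes ordered by their si-NC mean. VIM lies between 311 and 486, with a mean near 388 in both groups, CDH2 between 33.5 and 41.8, and CDH1 under 0.16 in every library.

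The order of the factors below SNAI2 differed between the groups. In si-SNHG17-1 libraries TWIST1 followed at 8.85 ± 1.21 CPM per kb, apart from the next gene, and TWIST2, ZEB1, ZEB2 and SNAI1 lay between 5.66 and 3.43, each overlapping the next in its libraries. In si-NC libraries the order was TWIST2, TWIST1, SNAI1, ZEB2 and ZEB1, between 6.92 and 1.99 CPM per kb, and only ZEB2 and ZEB1 overlapped. With the union of all exons as the length, SNAI1 stood above both ZEB genes in si-SNHG17-1 libraries, and ZEB1 above ZEB2 in si-NC libraries. The order of ZEB1, ZEB2 and SNAI1 thus depends on the transcript taken.

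The comparison of si-SNHG17-1 with si-NC asks which genes change when SNHG17 is lowered. All 9 members were among the 18679 genes with enough counts to test, CDH1 only through its si-NC libraries. In edgeR's quasi-likelihood test, SNAI2 and TWIST1 were called higher, at a Benjamini-Hochberg adjusted p under 0.05 over all genes, and no member was called lower. Over all tested genes 5.25% were called higher and 5.21% lower, 10.5% in all. The groups did not overlap for 5 members, 4 higher and CDH1 lower, while 33.7% of all tested genes did not overlap. At an unadjusted p under 0.05 in edgeR, 5 members were higher (SNAI2, TWIST1, ZEB1, ZEB2 and CDH2) and 1, CDH1, was lower, while 13.1% of all tested genes were higher and 13.7% lower. DESeq2 called 4 members higher and none lower, against 8.49% and 8.29% of its 16787 genes with an adjusted p. By limma-voom 3 members were called higher and none lower, against 5.47% and 5.38% of all tested genes. The median log2 fold change was 0.22 over the 9 members and −0.00 over all tested genes.

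**Figure D2:**
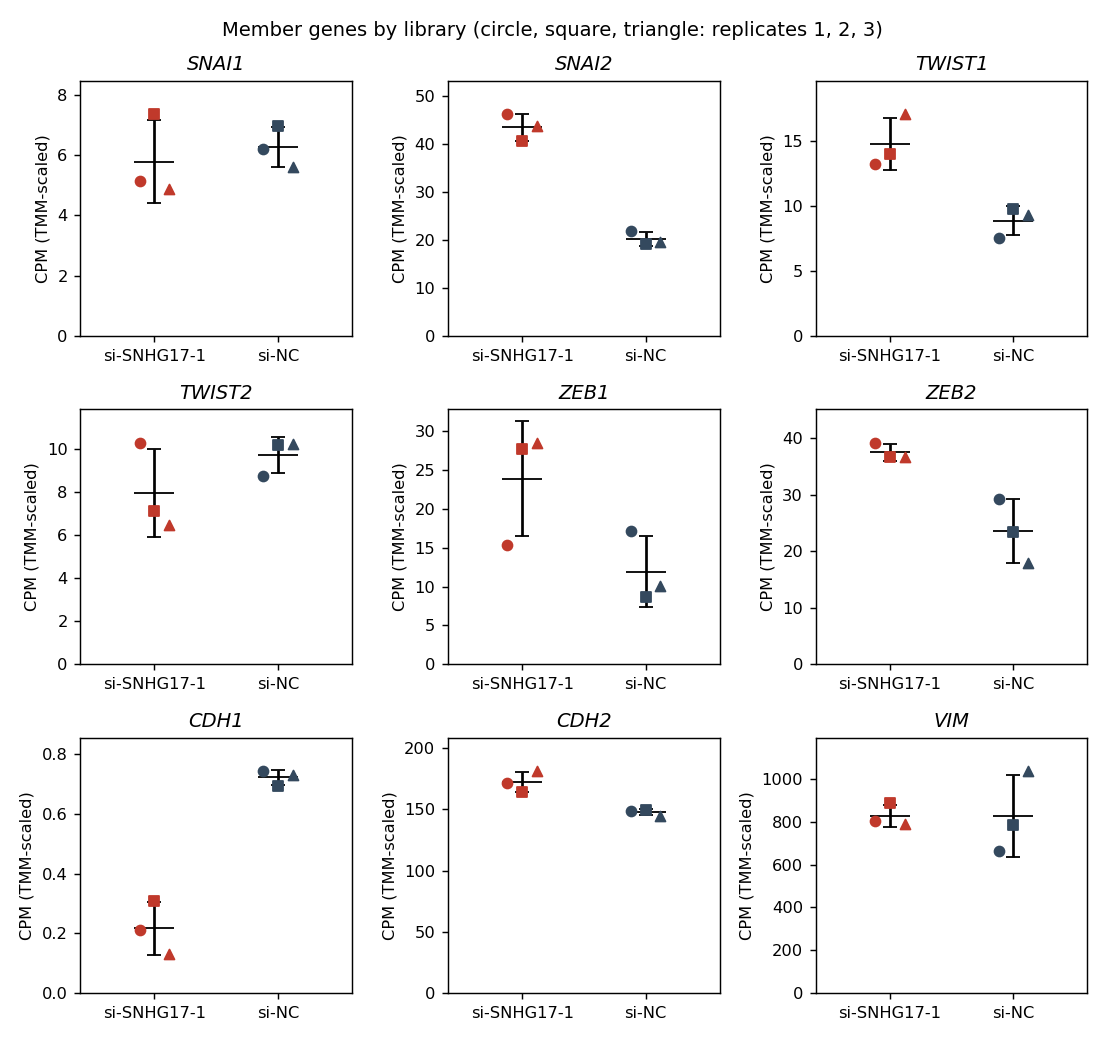
TMM-scaled CPM of each gene in each library, si-SNHG17-1 left and si-NC right, with the mean and SD as a bar and whiskers and a marker shape per replicate number. SNAI2, TWIST1, ZEB2 and CDH2 have every si-SNHG17-1 point above every si-NC point, CDH1 has every one below, and SNAI1, TWIST2, ZEB1 and VIM overlap.

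SNAI2 (ENSG00000019549.9, chromosome 8, 48917768 to 48921740 of GRCh38, minus strand) encodes SLUG, a repressor of E-cadherin that is also used by neural crest cells. It measured 46.27, 40.59 and 43.82 CPM in the si-SNHG17-1 libraries, against 22.002, 19.257 and 19.596 CPM in the si-NC libraries. All 3 si-SNHG17-1 libraries lay above every si-NC library, as 16.4% of all tested genes did. SNAI2 rose 2.15-fold, with a log2 fold change of 1.10 ± 0.11 (SE; edgeR adjusted p = 0.00247). The call held in each of the 6 smaller fits that omit a library, where the adjusted p reached 0.0197 at most.

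SNAI1 (ENSG00000124216.3, chromosome 20, 49982999 to 49988886, plus strand) encodes SNAIL, the founding repressor of the family in this transition. It measured 5.13, 7.36 and 4.88 CPM in si-SNHG17-1 libraries, against 6.21, 6.97 and 5.62 CPM in si-NC libraries. The groups overlapped, and the log2 fold change was −0.11 with a 95% interval of −0.60 to 0.37 (edgeR adjusted p = 0.787). Within a library the ratio of SNAI2 to SNAI1 counts was 9.02, 5.52 and 8.97 after si-SNHG17-1, against 3.54, 2.76 and 3.48 after si-NC. These ratios need no scaling between libraries. The groups did not overlap, which restates the rise of SNAI2 beside SNAI1 and is no further evidence. The share of other gene pairs with such ratios was not computed.

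TWIST1 and TWIST2 encode close relatives of the basic helix-loop-helix family that act in the developing mesoderm and skull. TWIST1 (ENSG00000122691.12, chromosome 7, 19020991 to 19117672, minus strand) measured 13.24, 13.96 and 17.03 CPM in si-SNHG17-1 libraries, against 7.56, 9.72 and 9.31 CPM in si-NC libraries. The groups did not overlap, and TWIST1 rose 1.66-fold, with a log2 fold change of 0.73 ± 0.17 (SE; edgeR adjusted p = 0.0343). The call was lost in every fit with a library left out, with adjusted p between 0.0606 without si-NC replicate 2 and 0.111 without si-SNHG17-1 replicate 3. In those fits the log2 fold change lay between 0.63 and 0.81. Its antisense gene AC003986.2, which shares 141 exonic bases, had 28 counts summed over si-SNHG17-1 libraries and 36 over si-NC libraries.

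TWIST2 (ENSG00000233608.3, chromosome 2, 238848032 to 238910543, plus strand) measured 10.3, 7.12 and 6.45 CPM after si-SNHG17-1, against 8.73, 10.2 and 10.2 CPM after si-NC. The groups overlapped through si-SNHG17-1 replicate 1, and the log2 fold change was −0.29 with a 95% interval of −0.77 to 0.19 (edgeR adjusted p = 0.427). TWIST1 counts were 1.29, 1.96 and 2.64 times those of TWIST2 in si-SNHG17-1 libraries, against 0.866, 0.955 and 0.909 times in si-NC libraries. Counts of TWIST1 thus exceeded those of TWIST2 in every si-SNHG17-1 library and in no si-NC library.

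ZEB1 and ZEB2 encode large zinc finger and homeobox repressors with the same arrangement of domains. ZEB1 (ENSG00000148516.21, chromosome 10, 31318495 to 31529814, plus strand) measured 15.3, 27.7 and 28.5 CPM in si-SNHG17-1 libraries, against 17.1, 8.67 and 10.0 CPM in si-NC libraries. Replicate 1 departed from the other 2 in both groups, being low after si-SNHG17-1 and high after si-NC, so that the groups overlapped. The mean was 2.00 times as high after si-SNHG17-1, the largest ratio after that of SNAI2, but the log2 fold change of 1.00 ± 0.32 (SE) was not called (edgeR adjusted p = 0.0945). It was called by DESeq2 (adjusted p = 0.00747) and by edgeR without si-NC replicate 1 (adjusted p = 0.0426, log2 fold change 1.35). In the other 12 of 14 alternatives ZEB1 was not called, with an adjusted p up to 0.232 (edgeR without si-SNHG17-1 replicate 3).

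The antisense gene ZEB1-AS1, which starts head to head with ZEB1, averaged 9.27 ± 1.71 CPM in si-SNHG17-1 libraries and 4.76 ± 1.87 CPM in si-NC libraries (SD, n = 3 each), with a log2 fold change of 0.96 ± 0.29 (SE; edgeR adjusted p = 0.0812). Exons of ZEB1 and ZEB1-AS1 share 366 bases, and the counting is not stated to use strand, so reads of the 2 genes cannot be told apart there. Of the 7 RefSeq promoter windows of ZEB1, the 1 with the most matches to CACCTG or CAGGTG is shown. It shares 220 bases with a promoter window of ZEB1-AS1. It covers chr10:31318966-31319265 on the plus strand (GRCh38.p14), from 250 bases before a ZEB1 start to 50 after it, and capitals mark CACCTG or its complement CAGGTG.
ZEB1 window: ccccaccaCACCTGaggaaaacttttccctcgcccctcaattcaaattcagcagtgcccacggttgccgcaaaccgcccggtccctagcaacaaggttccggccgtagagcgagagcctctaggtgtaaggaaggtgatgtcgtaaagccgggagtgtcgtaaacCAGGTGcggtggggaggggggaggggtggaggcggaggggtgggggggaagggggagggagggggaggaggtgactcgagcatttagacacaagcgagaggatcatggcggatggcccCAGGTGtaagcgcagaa
This window held 3 matches on both strands together, and 20.6% of 35116 windows of the same length held at least 1. That share is no background for this window, which was picked for its matches, and the share with 3 or more was not computed. Of the other windows of the members in the RefSeq table, 1 of ZEB1 held 1 match, and those of TWIST2, ZEB2, CDH2 and VIM held none of these letters. SNAI1, SNAI2, TWIST1 and CDH1 had no window to search.

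ZEB2 (ENSG00000169554.18, chromosome 2, 144364364 to 144524583, minus strand) measured 39.2, 36.6 and 36.7 CPM after si-SNHG17-1, against 29.3, 23.4 and 18.0 CPM after si-NC. All 3 si-SNHG17-1 libraries lay above every si-NC library, and they were closer to each other than the si-NC libraries were. The log2 fold change of 0.67 ± 0.18 (SE) missed the threshold in the edgeR test (adjusted p = 0.0527). DESeq2 (adjusted p = 0.00451), limma-voom (0.0373), total-count scaling (0.0450), a filter of 1 CPM in 3 libraries (0.0403) and the edgeR fit without si-NC replicate 1 (0.0216) each called it higher. The other 9 of 14 alternatives did not call it, with an adjusted p up to 0.148 (edgeR without si-SNHG17-1 replicate 1). The antisense gene ZEB2-AS1 had 0, 4 and 3 counts in si-SNHG17-1 libraries and 0 in all si-NC libraries.

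CDH1 (ENSG00000039068.18, chromosome 16, 68737225 to 68835548, plus strand) encodes E-cadherin, which holds epithelial cells together at adherens junctions. It had 8, 13 and 4 counts in the si-SNHG17-1 libraries, against 28, 29 and 29 counts in the si-NC libraries. Depth is thus thin in both groups, and no si-SNHG17-1 library reached the si-NC level, as 17.3% of all tested genes did in this direction. Pooled over libraries this was 0.225 CPM (exact Poisson 95% interval 0.146 to 0.332) after si-SNHG17-1 and 0.722 CPM (0.578 to 0.892) after si-NC, which covers counting error only. The log2 fold change of −1.71 ± 0.53 (SE) was not called (edgeR adjusted p = 0.0862). CDH1 passed the count filter only through its si-NC libraries, where it is high. Its lack of overlap and its unadjusted p are thus no support for a fall. Between 8 and 60 counts, multiples of 4 occurred 1.45 to 1.66 times as often as the adjoining numbers, so values as small as these may not be plain tallies of reads.

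CDH2 (ENSG00000170558.8, chromosome 18, 27950966 to 28177446, minus strand) encodes N-cadherin, the cadherin of neural and mesenchymal cells. It measured 171, 165 and 181 CPM in si-SNHG17-1 libraries, against 149, 150 and 145 CPM in si-NC libraries. The groups did not overlap, with a log2 fold change of 0.22 ± 0.07 (SE) that was not called (edgeR adjusted p = 0.0893). Counts of CDH2 were 819, 534 and 1392 times those of CDH1 in si-SNHG17-1 libraries, against 201, 216 and 198 times in si-NC libraries. CDH2 exceeded CDH1 in all 6, and the ratio after si-SNHG17-1 rests on 4 to 13 counts of CDH1 a library.

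VIM (ENSG00000026025.15, chromosome 10, 17228259 to 17237593, plus strand) encodes vimentin. It measured 803, 889 and 791 CPM in si-SNHG17-1 libraries, against 663, 784 and 1037 CPM in si-NC libraries. The si-NC libraries enclosed all 3 si-SNHG17-1 libraries, and the log2 fold change was −0.00 with a 95% interval of −0.35 to 0.35 (edgeR adjusted p = 0.998). Its antisense gene VIM-AS1 stood at 447 ± 42.17 CPM after si-SNHG17-1 and 411 ± 49.97 CPM after si-NC (SD, n = 3 each). VIM counts were 1.79 to 1.92 times those of VIM-AS1 in si-SNHG17-1 libraries and 1.52 to 2.35 times in si-NC libraries. The exons of the 2 genes share 641 of the 5158 exonic bases of VIM, so part of the signal listed under either name may belong to the other.

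**Figure D3:**
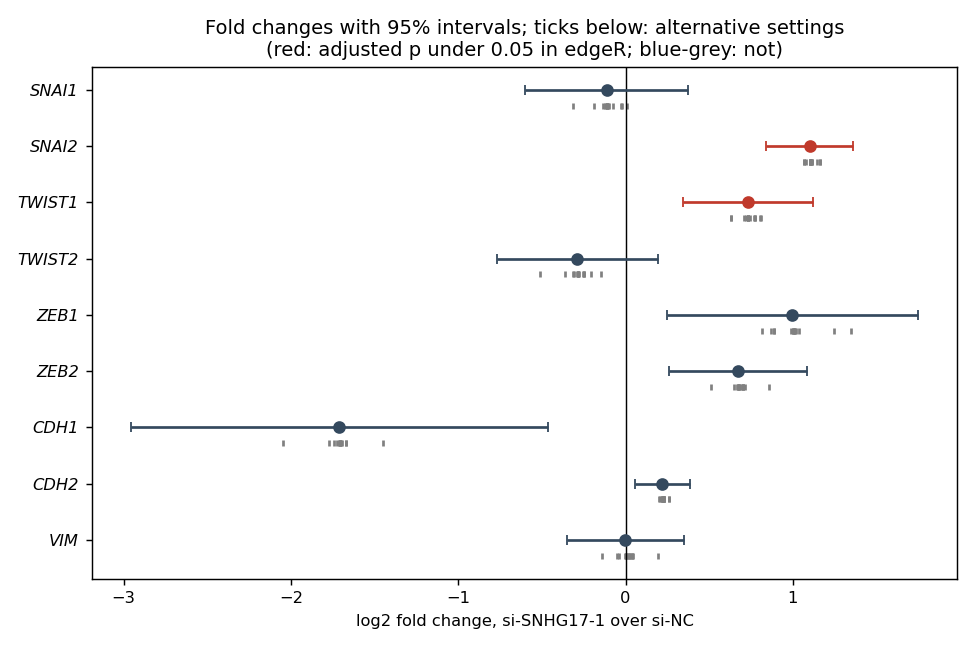
Log2 fold change of each gene, si-SNHG17-1 over si-NC, with its unadjusted 95% interval from edgeR, and the values under 14 alternative settings as ticks below (13 for CDH1). SNAI2 stays between 1.07 and 1.16 in these settings, TWIST1, ZEB1, ZEB2 and CDH2 stay above 0, CDH1 and TWIST2 stay below 0, and VIM and SNAI1 lie on both sides of 0.

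For the 2 called members, the genes with the nearest profile were sought among 12783 tested genes with a mean of at least 2 CPM, by the Euclidean distance between log2 CPM profiles centred on their mean over the 6 libraries. Nearest to SNAI2 were ZNF860, THBS1, GALNT3, RASAL2 and HIST2H2BE, at distances of 0.168 to 0.197. THBS1, which encodes the matrix protein thrombospondin 1, averaged 182 CPM after si-SNHG17-1 and 79.4 CPM after si-NC. GALNT3, which encodes a glycosyltransferase of mucin-type O-glycans, averaged 59.3 and 27.6 CPM in the same order of groups. Nearest to TWIST1 were ADAM22, KLHDC3, ANGPT1, DIO2 and EFNB2, at 0.164 to 0.208. A profile over 6 libraries in 2 groups mostly reflects the difference between the groups. ADAM22 and EFNB2 were not themselves called (edgeR adjusted p = 0.0544 and 0.0531), and ANGPT1 and DIO2 stayed called in none of the 6 smaller fits.

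A further 10 lists of related genes, chosen with earlier results known, were counted in the same fit, against 10.5% of all genes called. Among 15 tested factors and splicing regulators of the transition other than the members, TCF3 and ID3 rose. TCF3, which encodes the E proteins E12 and E47 that also repress CDH1, averaged 113 ± 1.59 CPM after si-SNHG17-1 and 62.8 ± 3.75 CPM after si-NC (log2 fold change 0.85 ± 0.08 SE, edgeR adjusted p = 0.00191). ID3, an inhibitor of such E proteins, averaged 303 CPM after si-SNHG17-1 and 231 CPM after si-NC, and stayed called in 1 of the 6 smaller fits. Of 10 tested factors that keep the epithelial state, 1 was called, TP63, at 0.988 CPM after si-SNHG17-1 and 0.110 CPM after si-NC. It was not called once si-SNHG17-1 replicate 1 or replicate 2 was omitted (edgeR adjusted p up to 0.0643). TP63 passed the count filter only through its si-SNHG17-1 libraries, where it is high, so its call is a description and no support for a rise. Of 7 squamous or basal markers, TP63 among them, KRT6A was at 0 counts in all 6 libraries and 5 averaged under 1 CPM. They summed to 309 to 348 CPM in si-SNHG17-1 libraries and 275 to 298 CPM in si-NC libraries, nearly all of it SFN, and their part in the rise of TP63 was not tested. None of these 10 was lower, either by edgeR, DESeq2 or limma-voom or at an unadjusted p under 0.05.

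Of 19 corepressors and chromatin partners, 1 rose and 4 fell. At an unadjusted p under 0.05, 6 were higher and 7 lower, DESeq2 called 1 higher and 6 lower, and limma-voom called 1 higher and 4 lower. HDAC1, a histone deacetylase that SNAIL recruits, rose (log2 fold change 0.79 ± 0.08 SE, edgeR adjusted p = 0.00206), while LIMD1, a LIM protein that binds SNAI proteins, fell (−0.85 ± 0.10 SE, adjusted p = 0.00326). KDM1A, the histone demethylase that binds the SNAG domain of SNAIL, fell to 288 ± 24.8 CPM after si-SNHG17-1, against 402 ± 5.70 CPM after si-NC, and lost its call without si-SNHG17-1 replicate 1 (adjusted p = 0.0539). EED, a Polycomb subunit, was lower (−0.50) and stayed called in none of the smaller fits. PRMT5, an arginine methyltransferase, was lower too (−0.48) but was not called once si-SNHG17-1 replicate 1 or replicate 3 was omitted (adjusted p up to 0.0652). Of 19 regulators of the stability of these proteins, SIAH2 rose and LOXL2 fell, by log2 fold changes of 0.48 and −0.37. SIAH2 stayed called in 3 and LOXL2 in 2 of the 6 smaller fits.

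Of 25 TGF-beta ligands, receptors and SMADs, the pathway best known for inducing the transition, 3 rose and none was called lower by edgeR. At an unadjusted p under 0.05 in edgeR, 5 were higher, and SMAD3, SMAD5, SMAD6 and SMURF2 were lower. DESeq2 called 3 higher and 3 lower, and limma-voom 3 higher and 1 lower. BMP2, a bone morphogenetic protein, averaged 301 ± 8.89 CPM after si-SNHG17-1 and 170 ± 10.5 CPM after si-NC (log2 fold change 0.82 ± 0.07 SE, edgeR adjusted p = 0.00163). TGFBR3, which encodes the coreceptor betaglycan, and LTBP1, which anchors latent TGF-beta in the matrix, rose by 0.87 and 0.79, and LTBP1 lost its call without si-SNHG17-1 replicate 1 (adjusted p = 0.0515). TGFBR3 stayed called whichever library was removed.

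Of 27 cadherin genes listed other than CDH1 and CDH2, 10 could be tested. CDH5, the endothelial cadherin, was the 1 called, at 5.89 ± 0.84 CPM after si-SNHG17-1 and 1.70 ± 0.68 CPM after si-NC. Of 8 endothelial markers, KDR was at 0 counts in all 6 libraries, 7 averaged under 1 CPM and CDH5 itself was the highest. They summed to 8.11 to 9.39 CPM in si-SNHG17-1 libraries and 3.30 to 5.18 CPM in si-NC libraries. These sums contain CDH5, so they are no separate measure beside its rise, and the part of the other markers was not tested. CDH5 was not called once si-SNHG17-1 replicate 1 or replicate 2 was omitted (adjusted p up to 0.0630). Of 15 tested catenins and cadherin partners, FGFR1, a growth factor receptor that N-cadherin binds, rose by 0.89, and the desmosomal plakophilin PKP3 fell by 0.41 but stayed called in 2 of the 6 smaller fits. None of these 10 cadherins, which leave out CDH1 and CDH2, was lower by edgeR, DESeq2 or limma-voom or at an unadjusted p under 0.05.

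Of 27 tested epithelial markers, CLDN1 rose and 7 fell, and the list's median log2 fold change was −0.18. At an unadjusted p under 0.05, 2 were higher and 9 lower, DESeq2 called 2 higher and 7 lower, and limma-voom called 1 higher and 7 lower. KRT7, a keratin of simple epithelia, averaged 1100 ± 38.8 CPM after si-SNHG17-1 and 1721 ± 153 CPM after si-NC (log2 fold change −0.65 ± 0.07 SE, edgeR adjusted p = 0.00332) and stayed called whichever library was removed. TJP3, a tight junction scaffold, was lower at 4.45 and 9.45 CPM, in si-SNHG17-1 and si-NC libraries, but was not called once si-SNHG17-1 replicate 1 or replicate 2 was omitted (adjusted p up to 0.0627). KRT18, another simple keratin, fell by 0.46 and stayed called in 1 of the 6 smaller fits, and CLDN1, a claudin that rose by 0.36, in none. The other 4 that fell were CLDN4, LLGL2, PPL and PRSS8, and each stayed called in at most 1 of these fits. DSP, which encodes the desmosomal protein desmoplakin, was at 680 CPM after si-SNHG17-1 and 727 CPM after si-NC, and EPCAM did not average above 0.365 CPM in either.

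Of 23 tested mesenchymal markers, 5 rose while 2 fell, around a list median of 0.14 (log2 fold change). At an unadjusted p under 0.05, 6 were higher and 3 lower, DESeq2 called 5 higher and 3 lower, and limma-voom called 4 higher and 2 lower. TNC, the matrix protein tenascin C, averaged 16.03 ± 1.74 CPM after si-SNHG17-1 and 5.28 ± 1.06 CPM after si-NC (log2 fold change 1.601 ± 0.193 SE, edgeR adjusted p = 0.00423) and stayed called whichever library was removed. COL3A1 and TAGLN rose by 0.52 and 0.99, and lost their calls in 3 and 5 of the 6 smaller fits. COL1A1 and COL5A1 rose by 0.36 and 0.31, and stayed called in 0 and 1 of them. FBN1, which encodes fibrillin, fell by 0.63 and lost its call without si-SNHG17-1 replicate 1 (adjusted p = 0.0539), and the receptor kinase gene AXL fell by 0.34 and kept its call in 1 fit. The 10 fibroblast markers summed to 247 to 262 CPM in si-SNHG17-1 libraries and 187 to 203 CPM in si-NC libraries, with COL1A2 and PDGFRA at 0 counts in all 6, and both called fibroblast markers, COL1A1 and COL3A1, are in the mesenchymal list too. Their part in the other rises was not tested. Of 9 intermediate filament genes and partners, NES, which encodes nestin, rose by 1.28 and LMNB2 by 0.40. None was called lower by edgeR, DESeq2 or limma-voom. At an unadjusted p under 0.05 in edgeR, 3 were higher and PLEC was lower (log2 fold change −0.21). LMNB2 stayed called in 1 of the 6 smaller fits.

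**Figure D4:**
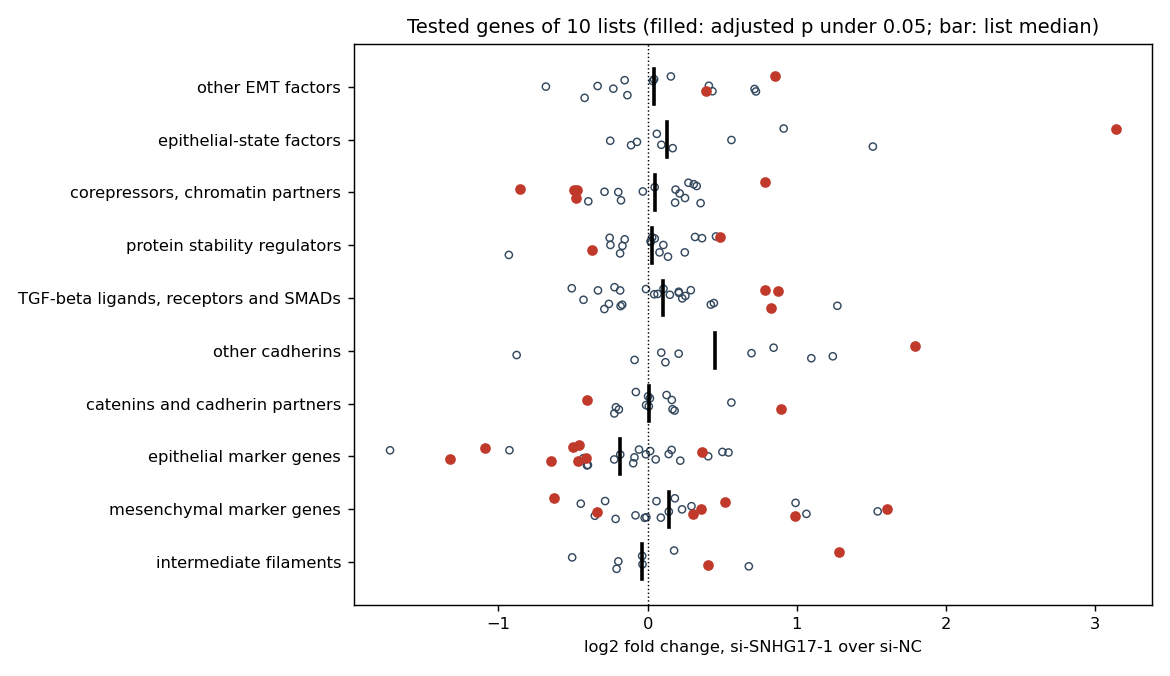
Log2 fold change, si-SNHG17-1 over si-NC, of every tested gene in the 10 lists, filled where the edgeR adjusted p was under 0.05, with the list median as a bar. Epithelial markers hold 7 filled points left of 0 and 1 right of it, and mesenchymal markers 2 left and 5 right.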

How the data were processed

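RNA-seq of 3 si-SNHG17-1 and 3 si-NC libraries was deposited as 1 table of raw counts per gene, which the authors labelled raw and whose values are whole numbers. Reads were aligned with HISAT2 to GRCh38, per the submitters' processing notes; how counting was done, with which annotation and strand setting, is not given in the sources used here. Groups and replicate numbers came from the titles. The members, lists and tests were chosen with earlier results of these data known. Genes were kept by filterByExpr (minimum count 10, minimum total 15), then edgeR 4.0.16 under R 4.3.3 compared the groups (TMM, quasi-likelihood test, no block, Benjamini-Hochberg over all tested genes, threshold 0.05). Each SE is the size of the log2 fold change over the root of its F statistic. Alternatives used DESeq2 1.42.0, limma 3.58.1 voom, other scalings and filters, a replicate block and each library left out. Adding counts of opposite-strand partners to the members was chosen after seeing the data. Lengths and overlaps came from GENCODE release 29, which matched 57980 of 58243 identifiers without version. Text names all members, up to 3 called genes per direction and list by smallest adjusted p, and the 5 nearest profiles of each called member. EED, PLEC, SMAD3, SMAD5, SMAD6, SMURF2, CLDN4, LLGL2, PPL, PRSS8, COL5A1, DSP, EPCAM, MIR200CHG and the other microRNA genes, the antisense partners and the marker genes were named after their values were seen. A result from the list of other transition factors is not reported here.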

Additional observations from a re-analysis of the deposited data

How the results depend on the processing

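SNAI2 was called higher in all 14 alternatives (log2 fold change 1.07 to 1.16), and SNHG17 lower in all 14. TWIST1 was not called with a replicate block (adjusted p = 0.0830) or with no filter beyond a total above 0 (0.0550), nor with any library left out; its direction did not change. The number of members called higher was 2, and became 1 with no filter or with the replicate block. It was 3 with total counts, with a filter of 1 CPM in 3 libraries or with limma-voom. DESeq2 gave 4, and fits with a library left out gave 1 to 3. VIM, at −0.00, turned positive under total counts (0.0402), median-of-ratios size factors (0.0020), no filter (0.0029), a filter of 1 CPM in 3 libraries (0.0101), limma-voom (0.0238), a replicate block (0.0228) and partners' counts added (0.0394, chosen after seeing the data). With a library omitted, VIM ranged from −0.14 to 0.19 and SNAI1 from −0.32 to 0.0093, each with both signs; VIM was positive without si-SNHG17-1 replicate 1 (0.0273) or 3 (0.0440) or si-NC replicate 3 (0.193), and SNAI1 without si-SNHG17-1 replicate 3. Over all genes, 980 were called higher and 974 lower. The replicate block left 273 and 259, no filter left 627 lower, and a library left out gave 313 to 694 higher and 264 to 705 lower, with fewer samples to test. Replicates of the same number in both groups did not deviate together (correlations −0.02, −0.04 and −0.02). Whether they were paired by design is not stated, and these correlations cannot show it. CDH1 could not be fitted with the filter of 1 CPM in 3 libraries, and DESeq2 gave it no adjusted p. At 4 to 29 counts per library, depth limits what can be said of CDH1.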

Other observations

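Of 3 further antisense genes of the members, 2 had enough counts to test and neither was called. AC110015.1, which overlaps CDH2 on the opposite strand by 136 exonic bases, had 41, 43 and 33 counts in the si-SNHG17-1 libraries, against 0, 18 and 0 counts in the si-NC libraries (log2 fold change 2.82 ± 1.23 SE, edgeR adjusted p = 0.194). All of its si-NC counts came from replicate 2, and it passed the count filter only through its si-SNHG17-1 libraries. CDH2 itself had 19056 counts summed over the si-SNHG17-1 libraries and 17624 over the si-NC libraries. AL133415.1, which overlaps VIM, averaged 6.16 ± 1.38 CPM after si-SNHG17-1 and 7.72 ± 0.91 CPM after si-NC (SD, n = 3 each; edgeR adjusted p = 0.377). AC099314.1, which overlaps CDH1 by 347 exonic bases, was at 0 counts in all 6 libraries.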
